A study of Artemia franciscana with 14 samples.

Results

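Female embryos of the brine shrimp *A. franciscana* were followed by low-input RNA-seq at 4 days post-fertilization (dpf) and at 1–2 dpf. The 6 libraries of single female embryos were taken from the 14 of the series by the sex and stage in their labels, with replicates 7, 10 and 11 at 4 dpf and replicates 3, 9 and 12 at 1–2 dpf. At 1–2 dpf, replicate 3 was of 1 dpf and replicates 9 and 12 were of 2 dpf. The other libraries are 6 single male embryos, 3 at 4 dpf and 3 at 1–2 dpf, and 1 adult of each sex. All animals were wild-type and untreated, kept in water with sea salt, and every library was made from poly(A) RNA. The sex of an embryo had been called by the authors from SNPs in Z transcripts and was not called again here. The amount of RNA from an embryo was below what could be measured, so each library rests on an unknown input that was amplified by PCR. The labels do not give the clutch of an embryo, so p-values measure the spread between these embryos.

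*Artemia* females carry a Z and a W chromosome and males carry a pair of Z chromosomes. At 1–2 dpf the embryo is a blastula, and at 4 dpf it is past gastrulation. As a general background, an early animal embryo lives on RNA that its mother placed in the egg, which is degraded as the genome of the embryo becomes active, and tissues then start to express genes of their own. The comparison of the stages asks which transcripts were gained and which were lost over this interval in females. In libraries of whole embryos, fewer cells of a type and less RNA per cell cannot be told apart.

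The deposited counts list 19421 genes, of which 13398 had a read in at least 1 of the female embryos. Libraries of 4 dpf hold 4674069 to 6007172 counted reads, and those of 1–2 dpf hold 3591905 to 4597440. Reads were not collapsed by molecular identifier, so these totals and the limits derived from them cover counting error only. The number of genes with a read was 10663, 11212 and 9718 at 4 dpf, against 10842, 10045 and 6414 at 1–2 dpf, where the lowest value is that of replicate 12. With a mean of 10531 ± 756 genes at 4 dpf and of 9100 ± 2360 genes at 1–2 dpf (SD, n = 3 embryos each), the stages overlapped, and no difference was detected (exact permutation test, two-sided, p = 0.5, where the smallest possible p is 0.1). The 100 most abundant genes held 38.9 ± 1.40% of the reads at 4 dpf and 45.1 ± 3.84% at 1–2 dpf (SD, n = 3 each). These shares did not overlap, and the exact permutation test gave the smallest p it can (two-sided, p = 0.1). Levels below are CPM (counts relative to the total of a library), scaled by TMM over the 6 female libraries, and 3 reads in a library correspond to 0.499 to 0.633 CPM at 4 dpf and 0.671 to 0.816 CPM at 1–2 dpf.

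Of 8392 genes tested, 98 were higher at 4 dpf (1.17% of the genes tested) and 51 were lower (0.608%), with an adjusted p-value under 0.05 from the quasi-likelihood F test of edgeR. In either direction these are 149 genes (1.78%), and before adjustment 1200 genes were under 0.05. The 3 embryos of 4 dpf all lay above the 3 of 1–2 dpf in 1363 genes (16.2%) and all below them in 961 genes (11.5%), and each of the 149 genes is among these. The genes that rose had a median log2 fold change (log2FC, 4 dpf over 1–2 dpf) of 4.42 and those that fell one of -5.20, against a median of 0.18 over all genes tested. Most differences were large, with a log2FC of 4 or more in 57 of the 98 genes and below 2 in only 4. Among the genes that fell, the size of the log2FC was 4 or more in 30 of 51 and below 2 in 5. In 11 of the genes that rose, no embryo at 1–2 dpf had a read, and in 4 of the genes that fell, no embryo at 4 dpf had one. DESeq2, applied to the same counts, called 455 genes higher and 229 lower, which include all 149.

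**Figure D1:**
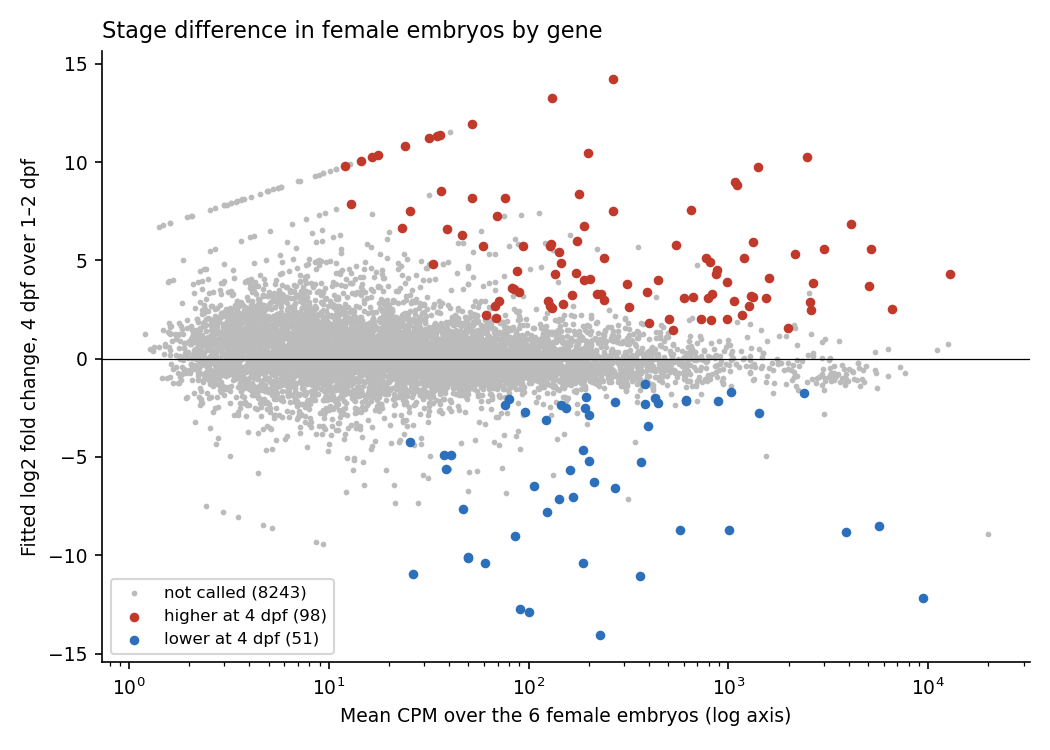
Fitted log2FC of each of 8392 genes (vertical axis, 4 dpf over 1–2 dpf) against its mean CPM over the 6 female embryos (horizontal log axis). Red points are the 98 genes higher at 4 dpf, blue points the 51 lower, and grey points the genes without a call; the straight upper band is made of genes without a read at 1–2 dpf, whose fitted value depends on the prior count.

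Genes that were nearly silent at 1–2 dpf reached high levels at 4 dpf. The 8 genes with the smallest p-values among those that rose carry no gene name in the sources used here, except jg5037, and are therefore given by their number. jg8673 had 2395, 2498 and 3509 CPM at 4 dpf, against 3.11, 1.36 and 5.15 CPM at 1–2 dpf. Its log2FC was 9.74 (standard error 0.59, adjusted p = 0.000709), with at most 23 reads in an embryo of the earlier stage. The lowest embryo of 4 dpf thus lay far above the highest of the earlier stage. jg5037, annotated as similar to serine/arginine repetitive matrix protein 1, a splicing coactivator in human cells, had 4860.5, 5212 and 4739 CPM at 4 dpf, against 5.70, 5.17 and 1.12 CPM at 1–2 dpf. Its log2FC was 10.28 (standard error 0.68, adjusted p = 0.000709). jg6030 had 6763, 6051 and 4917 CPM at 4 dpf, against 95.3, 152 and 116 CPM at 1–2 dpf, and its log2FC was 5.61 (standard error 0.35, adjusted p = 0.000709). This gene was thus already expressed in every embryo of the earlier stage.

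jg14473 had 9709, 7324 and 7432 CPM at 4 dpf, against 108, 57.1 and 43.2 CPM at 1–2 dpf (log2FC 6.88, standard error 0.49, adjusted p = 0.000865). jg4421 had 375, 328 and 329 CPM at 4 dpf, against 4.92, 7.89 and 3.13 CPM at 1–2 dpf (log2FC 6.02, standard error 0.46, adjusted p = 0.00118). jg12093 had 2684, 2410.2 and 2779.6 CPM at 4 dpf, against 51.5, 56.3 and 19.9 CPM at 1–2 dpf (log2FC 5.95, standard error 0.48, adjusted p = 0.00118). In jg4421 and jg12093, replicate 12 was the lowest embryo of its stage, yet replicates 3 and 9 also lay far below the later stage. jg17358 had 332, 228 and 224 CPM at 4 dpf and no read in any embryo at 1–2 dpf. It was at least 320.0-fold higher at 4 dpf, when the mean of 4 dpf is set against the largest level of 3 reads in a library of 1–2 dpf (adjusted p = 0.00118). jg11420 had 772, 406 and 404 CPM at 4 dpf and no read at 1–2 dpf, and was at least 646-fold higher (adjusted p = 0.00118). Neither gene was thus detectable at the earlier stage at this depth.

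**Figure D2:**
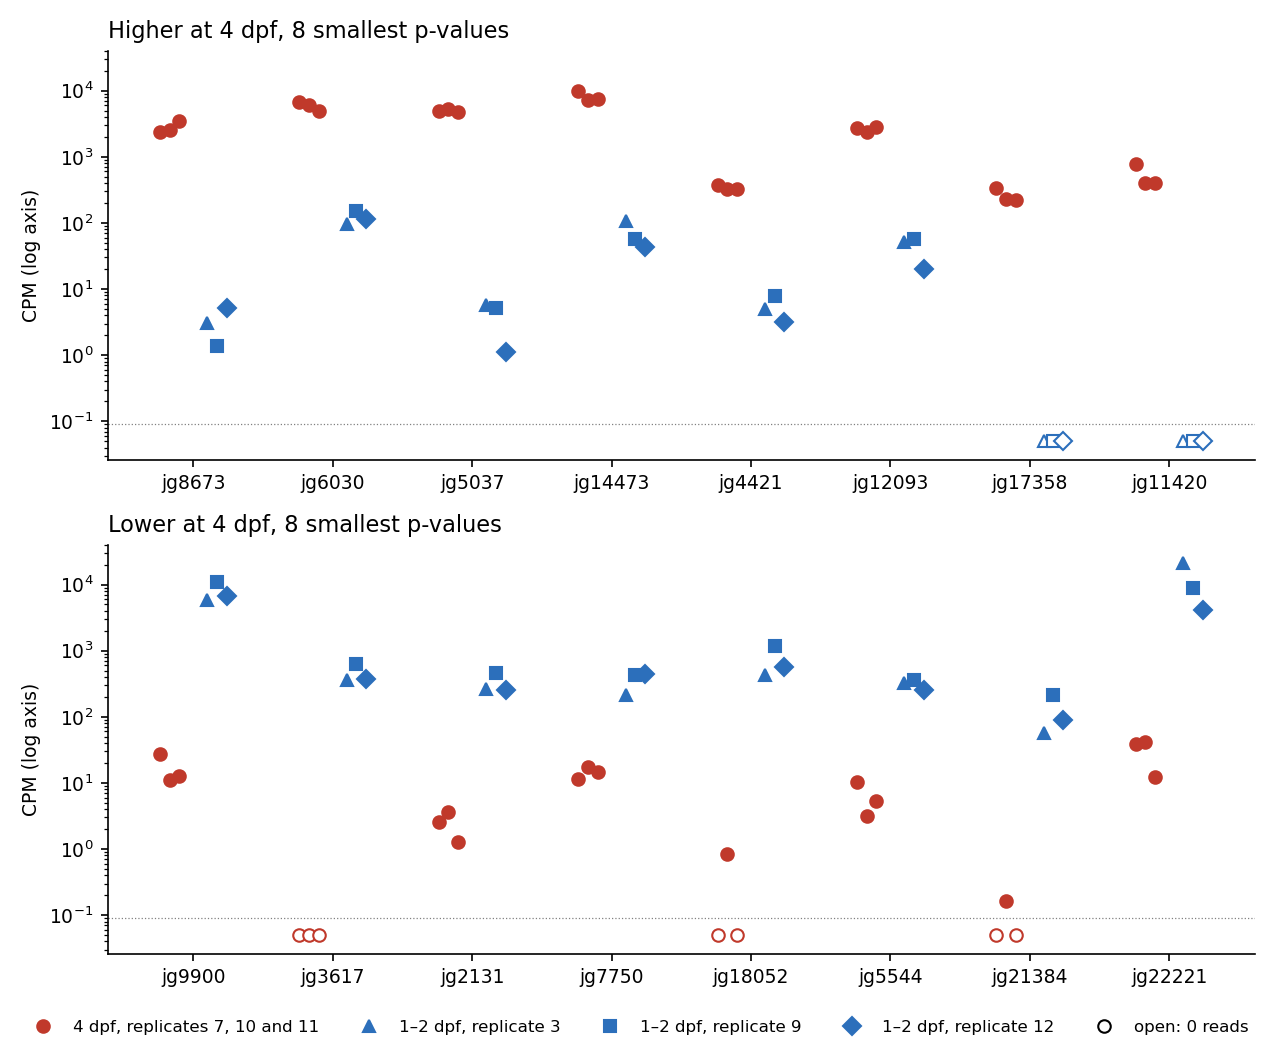
CPM on a log axis of the genes with the lowest p-values, 8 that rose and 8 that fell, in each of the 6 female embryos, with 4 dpf in red left of 1–2 dpf in blue. Open symbols below the dotted line have 0 reads, and diamonds are replicate 12. The 16 genes were chosen among calls whose stages do not overlap.

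Among the genes that rose, the most abundant at 4 dpf was jg14951, with 21999.7, 22460.5 and 28987 CPM at 4 dpf, against 908, 1516 and 1308 CPM at 1–2 dpf (log2FC 4.30, standard error 0.36, adjusted p = 0.00118). jg13290 had 10585, 8475 and 9095 CPM at 4 dpf, against 932, 777 and 445 CPM at 1–2 dpf (log2FC 3.71, standard error 0.37, adjusted p = 0.00209). These transcripts were already well covered at the earlier stage. The other genes of highest level, jg6029 and jg21213, belong to groups of neighbouring gene numbers that rose together. jg21212, jg21213 and jg21214 form the longest run of consecutive numbers among the calls. jg21212 had 4736, 3992 and 4742 CPM at 4 dpf, against 769.9, 645 and 431 CPM at 1–2 dpf (log2FC 2.87, standard error 0.32, adjusted p = 0.00356). jg21213 had 7415, 11234 and 11678 CPM at 4 dpf, against 361, 207 and 57.1 CPM at 1–2 dpf (log2FC 5.60, standard error 0.70, adjusted p = 0.00691). jg21214 had 4003, 4254 and 4360.2 CPM at 4 dpf, against 215, 74.0 and 29.8 CPM at 1–2 dpf (log2FC 5.31, standard error 0.73, adjusted p = 0.0103). All 3 members were highest in replicate 3 and lowest in replicate 12 within 1–2 dpf. Without replicate 9 of 1–2 dpf, jg21213 and jg21214 lost their call (adjusted p = 0.0669 and 0.0893). The next number, jg21215, was among the 5 most abundant genes of the female embryos and was not called. It had 8529, 15424 and 13995 CPM at 4 dpf, against 4928, 13318 and 10123 CPM at 1–2 dpf, and the stages overlapped (log2FC 0.42, standard error 0.43, adjusted p = 0.742).

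jg6029 and jg6030 rose side by side, although by different amounts. jg6029 had 11445, 11049.9 and 11217 CPM at 4 dpf, against 2426, 2140.0 and 1317 CPM at 1–2 dpf (log2FC 2.52, standard error 0.33, adjusted p = 0.00807), and its adjusted p was 0.0523 without replicate 11 of 4 dpf. jg12092, the neighbour of jg12093, had 377, 304 and 470.4 CPM at 4 dpf, against 26.9, 17.7 and 23.7 CPM at 1–2 dpf (log2FC 4.07, standard error 0.36, adjusted p = 0.00136). Further pairs of consecutive numbers that rose were jg8808 with jg8809 and jg21086 with jg21087. The pair jg22221 and jg22222 fell together. Neighbouring numbers can be gene copies that share reads, and whether the counting divided such reads between them is not given in the sources used here.

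Transcripts that were abundant at 1–2 dpf were nearly absent at 4 dpf. The gene with the smallest p-value among those that fell was jg9900, whose number lies within the differentiated region of the Z chromosome, Z(diff). It had 27.7, 11.1 and 12.9 CPM at 4 dpf, against 5762, 10799 and 6632 CPM at 1–2 dpf (log2FC -8.81, standard error 0.59, adjusted p = 0.000709). jg3617 had no read at 4 dpf, against 359, 627 and 375 CPM at 1–2 dpf, which makes it at least 717-fold lower in the later embryos (adjusted p = 0.00118). jg2131 had 2.56, 3.66 and 1.27 CPM at 4 dpf, against 268, 466 and 255 CPM at 1–2 dpf (log2FC -7.02, standard error 0.56, adjusted p = 0.00118). In these 3 genes, replicates 3 and 12 were close to each other, and replicate 9 was the highest embryo. jg7750 had 11.6, 17.1 and 14.8 CPM at 4 dpf, against 212, 429 and 444 CPM at 1–2 dpf (log2FC -4.64, standard error 0.43, adjusted p = 0.00159). jg5544 had 10.2, 3.16 and 5.28 CPM at 4 dpf, against 327, 365 and 257 CPM at 1–2 dpf (log2FC -5.67, standard error 0.54, adjusted p = 0.00159). jg18052 had 0, 0.832 and 0 CPM at 4 dpf, against 432, 1165 and 567 CPM at 1–2 dpf (log2FC -11.08, standard error 1.04, adjusted p = 0.00159). The only reads of jg18052 at the later stage were 5 in replicate 10. jg21384 had 1 read in 1 embryo at 4 dpf, against 57.2, 217 and 87.9 CPM at 1–2 dpf (adjusted p = 0.00227), which makes it 1862-fold lower with a 95% counting interval of 334 to 73589. In the model of all 12 embryos, the adjusted p of edgeR was 0.138 for jg3617 and 0.0915 for jg21384, and neither was called.

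The most abundant of the transcripts that fell was jg22224, with 11.2, 0.832 and 0 CPM at 4 dpf, against 15150.3, 25721 and 15893 CPM at 1–2 dpf (log2FC -12.20, standard error 1.56, adjusted p = 0.00763). jg22221 had 38.7, 41.1 and 12.5 CPM at 4 dpf, against 20998, 8970.2 and 4064 CPM at 1–2 dpf (log2FC -8.52, standard error 0.88, adjusted p = 0.00238). Within 1–2 dpf its level was highest in the embryo of 1 dpf and lowest in replicate 12. A smaller change was seen in jg8593, another of the abundant genes, with 985, 1123 and 1189.8 CPM at 4 dpf, against 2850.2, 4509 and 3739.9 CPM at 1–2 dpf (log2FC -1.75, standard error 0.28, adjusted p = 0.0216). The call of jg8593 was lost without replicate 7 (adjusted p = 0.126), replicate 10 (0.140) or replicate 11 (0.141) of 4 dpf and without replicate 9 of 1–2 dpf (0.0658).

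The most abundant transcript of all in female embryos, jg17559, did not pass the test. It is uncharacterized and had 243, 1.50 and 0 CPM at 4 dpf, against 19394, 49543 and 49742 CPM at 1–2 dpf. The stages did not overlap, and the spread at 4 dpf from no read to 1233 reads stands beside a log2FC of -8.93 with a standard error of 2.35 (adjusted p = 0.121). Without replicate 7, the embryo with 1233 reads, it was lower at 4 dpf with an adjusted p of 0.00635. jg21071, also among the 5 most abundant genes, had 13673, 17078 and 16457 CPM at 4 dpf, against 14580.0, 7899.7 and 5256 CPM at 1–2 dpf (log2FC 0.77, standard error 0.41, adjusted p = 0.463).

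Genes named for hits in the study's search for sex-biased intron retention were also looked up. After manual inspection, the authors judged all significant hits of that search to be false positives. Of the 4 genes looked up, 3 passed the test of stage (75%, against 1.78% of all genes tested). They were selected on libraries that include these 6, so their count is not independent evidence of a direction. jg5037 rose, as above. jg22016, which encodes a Tudor domain, a fold that binds methylated residues of other proteins, had 10.2, 5.16 and 0.633 CPM at 4 dpf, against 332, 633 and 297 CPM at 1–2 dpf (log2FC -6.29, standard error 0.90, adjusted p = 0.0129). Its adjusted p was 0.0817 without replicate 10 of 4 dpf and 0.0687 without replicate 9 of 1–2 dpf, and 0.0531 in the model of all 12 embryos. jg22222, an uncharacterized gene next to jg22221 in number, had 12.4, 1.66 and 0 CPM at 4 dpf, against 3066, 2179 and 768 CPM at 1–2 dpf (log2FC -8.74, standard error 1.44, adjusted p = 0.0227). Its adjusted p was 0.119 without replicate 10 of 4 dpf and 0.106 without replicate 9 of 1–2 dpf. The remaining gene, jg17559, was not called.

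Dosage compensation of a sex chromosome in *Drosophila* depends on the MSL complex, which acetylates histone H4 along the male X, and the study named its *Artemia* counterparts. None of the 5 was called by edgeR or DESeq2, where edgeR called 1.78% of all genes, nor was any under 0.05 before adjustment. jg3349 (MOF, the acetyltransferase of the complex) had 19.5, 35.4 and 49.0 CPM at 4 dpf, against 12.9, 20.7 and 36.5 CPM at 1–2 dpf (log2FC 0.57, standard error 0.66, adjusted p = 0.775). jg9702 (MSL1, the scaffold) had 22.2, 31.4 and 28.7 CPM at 4 dpf, against 19.7, 14.1 and 0 CPM at 1–2 dpf (log2FC 1.28, standard error 1.36, adjusted p = 0.753). jg13090 (MSL2, a RING finger subunit) had 6.88, 7.82 and 4.64 CPM at 4 dpf, against 9.58, 9.25 and 0 CPM at 1–2 dpf (log2FC 0.04, standard error 1.53, adjusted p = 0.994). In both MSL1 and MSL2 the value of 0 was that of replicate 12, while replicates 3 and 9 lay below the embryos of 4 dpf for MSL1 and above them for MSL2. jg10843 (DHX9/MLE, an RNA helicase) had 177, 214 and 183 CPM at 4 dpf, against 234, 141 and 128 CPM at 1–2 dpf (log2FC 0.19, standard error 0.33, adjusted p = 0.861). jg12255 (MSL3/MRG15, a chromodomain protein) had 91.1, 54.4 and 135 CPM at 4 dpf, against 103, 87.3 and 45.2 CPM at 1–2 dpf (log2FC 0.25, standard error 0.48, adjusted p = 0.873). The median log2FC of the 5 genes was 0.25, beside 0.18 over all genes tested. Without replicate 12 the median of the 5 genes was 0.013 and that over the same 8392 genes was -0.0085, with jg13090 at -0.56 and jg12255 at -0.04. Of the 4 other histone acetylation factors, 3 were tested, and none was called by edgeR or DESeq2 or was under 0.05 before adjustment. CBP (jg3149, a coactivator) had a log2FC of 1.72 (standard error 1.39, adjusted p = 0.662), GCN5 (jg16372) one of -0.67 (standard error 0.54, adjusted p = 0.663) and the deacetylase SIRT1 (jg8800) one of -0.32 (standard error 0.42, adjusted p = 0.802). Without replicate 12, which had no read of CBP, the log2FC of CBP, GCN5 and SIRT1 was 1.12, -1.02 and -0.64. TIP60 (jg7034), with 1.38, 7.49 and 1.90 CPM at 4 dpf, against 8.54, 2.18 and 0 CPM at 1–2 dpf, was below the filter on low counts. The largest standard errors, 1.36 for MSL1, 1.53 for MSL2 and 1.39 for CBP, were those of genes without a read in replicate 12. Without that embryo they were 0.56, 0.84 and 0.68. Changes of 1 standard error, and larger ones too, could have been missed in these genes.

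The qPCR assays of the study were made on young and old adults, not on embryos. They covered genes of Z(diff), genes of the pseudoautosomal region (PAR), where Z and W are alike, and reference genes. Of these 4, 3 and 2 genes, edgeR called none, where it called 1.78% of all genes tested. Before adjustment 1 of them was under 0.05, the reference gene jg15373, which DESeq2 called. The log2FC of the Z(diff) genes ranged from -0.43 in jg9787 to 1.30 in jg9743. The Z(diff) gene jg9743 had 152, 163 and 188 CPM at 4 dpf, against 142, 55.8 and 6.71 CPM at 1–2 dpf (adjusted p = 0.567), so that replicate 3 was level with the later stage and replicate 12 far below it. Between them stood jg9949, with 75.5, 58.4 and 66.7 CPM at 4 dpf, against 38.3, 41.9 and 15.2 CPM at 1–2 dpf (log2FC 1.07, adjusted p = 0.400), and jg9907, with at most 6.69 CPM in an embryo (log2FC 0.06, adjusted p = 0.986). In the PAR the values were 0.25 for jg8968, -0.74 for jg9092 and 0.40 for jg9331 (adjusted p of 0.890, 0.531 and 0.664). The reference gene jg15373 had 1617, 1106 and 459 CPM at 4 dpf, against 275, 197 and 284 CPM at 1–2 dpf. These embryos did not overlap, and the log2FC of 2.07 (standard error 0.46) had an adjusted p of 0.0755, or of 0.0359 without replicate 11 of 4 dpf. The other reference gene, jg3163, had 92.0, 48.9 and 70.3 CPM at 4 dpf, against 56.2, 115 and 111 CPM at 1–2 dpf (log2FC -0.42, adjusted p = 0.753).

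Counts hold no coordinates, and regions of Z were therefore taken by gene number, from jg9743 to jg9949 for Z(diff) and from jg8968 to jg9331 for PAR. These limits are the outermost qPCR genes of each region, and its borders may lie elsewhere. In Z(diff), 95 of 176 genes were tested, and their median log2FC was 0.0045, beside 0.18 over all genes. Without replicate 12 the median was -0.040 over 100 genes of Z(diff), beside -0.0085 over the 8392 genes. Called were 5 of them (5.26%, against 1.78% of all genes tested). jg9810, jg9847, jg9896 and jg9898 rose, with log2FC of 2.67, 3.28, 2.92 and 2.92, and jg9900 fell. jg9810 had 215, 226 and 223 CPM at 4 dpf, against 34.9, 31.0 and 38.3 CPM at 1–2 dpf. In PAR, 168 of 331 genes were tested, with a median of 0.16, or -0.013 over 183 genes without replicate 12. Of the 168 genes, 5 were called (2.98%). jg8973, jg9031 and jg9154 rose, while jg9097 and jg9240 fell. jg9240 had 1.38, 1.83 and 0 CPM at 4 dpf, against 52.8, 315 and 371 CPM at 1–2 dpf (log2FC -7.78). The genes of the regions other than jg9900 and jg9097 were chosen after their values had been seen.

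Replicate 12 of 1–2 dpf stood apart in its detection of genes. It had no read in 2497 of the genes tested (29.8%), against 1.49% to 5.29% in each of the other 5 females. Correlations of log2 CPM with the later stage were 0.58 to 0.63 for replicate 12, 0.66 to 0.71 for replicate 9 and 0.72 to 0.77 for replicate 3, each over the 8392 genes tested. In 1100 genes there was no read in replicate 12 and at least 10 reads in each of the other 5 females. For any other female, there were between 5 and 66 such genes. Of the 1100 genes, 4 were called higher at 4 dpf, where 1.17% of all genes tested were. A gene without a read in 1 of the 3 early embryos is raised in its log2FC by that value, so the following medians are descriptive. The median log2FC of the 1100 genes was 1.00 with replicate 12 and 0.39 without it. The genes missing likewise in replicate 3 (11 genes) or replicate 9 (29 genes) had medians of 1.097 and 0.84 with that embryo and of 0.51 and 0.24 without it. Replicate 12 thus differed in the number of such genes. Leaving out 1 of 3 early embryos without a read raises the early mean alike, whichever embryo it is. The similar shifts in log2FC therefore do not compare the embryos. Over all genes tested with no read in replicate 12, the median was 1.15 with it and 0.54 without it.

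**Figure D3:**
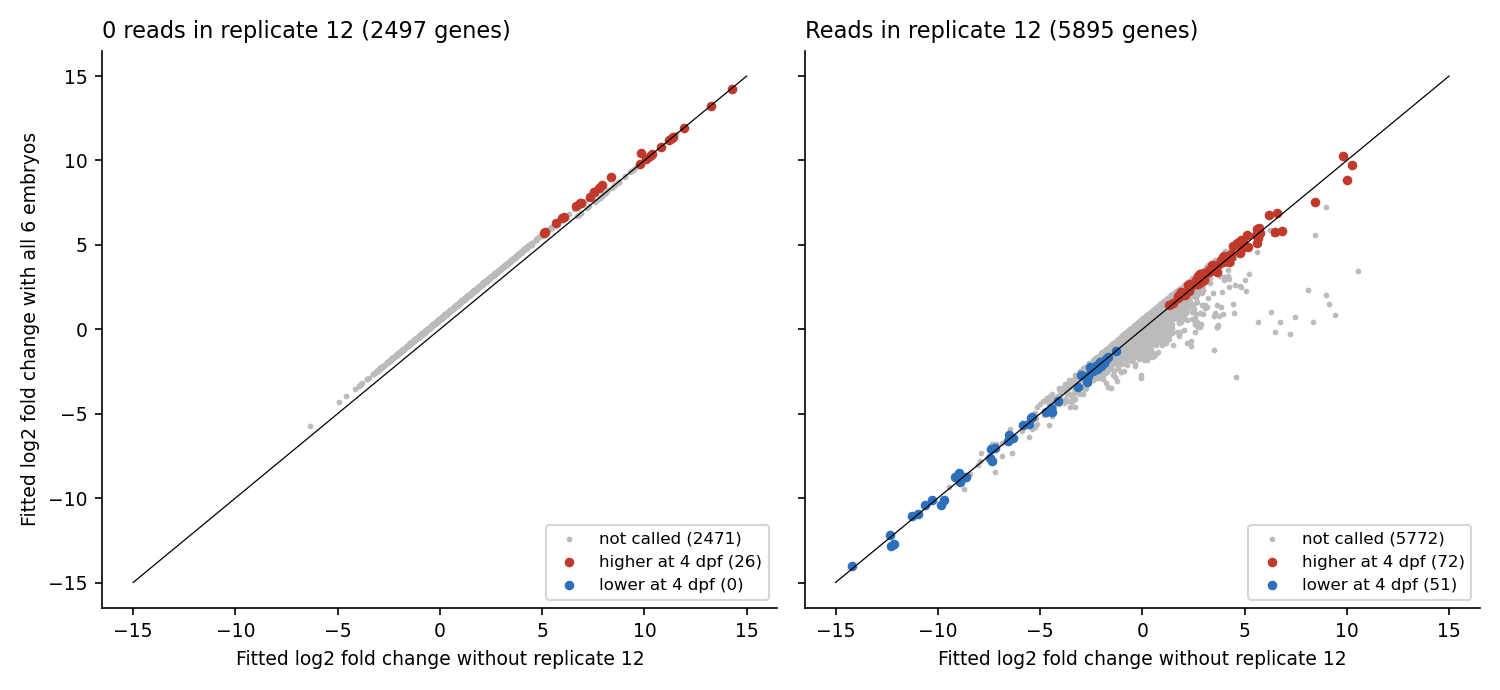
Fitted log2FC with all 6 female embryos (vertical axis) against that without replicate 12 of 1–2 dpf (horizontal axis), for 2497 genes with no read in this embryo (left) and 5895 genes with reads in it (right). The black line marks equal values; the left genes have a median of 1.15 with replicate 12 and 0.54 without it. None of the 98 genes called higher (red) or the 51 called lower (blue) changed its sign. The stages do not overlap in any of them, so a change of sign was hardly possible.

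Leaving this embryo out shifted the centre of all genes and changed part of the calls. Over the 8392 genes tested with all 6 embryos, the median log2FC was -0.0085 without replicate 12, beside 0.18 with it. It was 0.013 over the 9225 genes that passed the filter without this embryo. Without it, 125 genes were called higher and 55 lower, and 132 of the 149 calls were kept, 87 of genes that rose and 45 of genes that fell. Another 48 genes were called only without it, 38 higher and 10 lower. For the genes called with all 6 embryos, the median log2FC was 4.32 without it and 4.42 with it for those that rose, and -5.40 without it and -5.20 with it for those that fell. No call changed its sign, which was hardly possible, since the stages did not overlap in any of these genes. The 17 lost calls were close to the threshold, with adjusted p-values between 0.0239 and 0.0499 with all 6 embryos and between 0.0504 and 0.104 without replicate 12.

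Among the lost calls, jg8177 had 2573, 2909.5 and 3382 CPM at 4 dpf, against 943, 1132 and 959 CPM at 1–2 dpf, with replicate 12 between replicates 3 and 9. Its log2FC was 1.55 with all embryos (adjusted p = 0.0239) and 1.49 without replicate 12 (adjusted p = 0.0560). jg15534 (log2FC 3.53 and 3.25) and jg6290 (3.60 and 3.50) rose with all 6 embryos and had adjusted p-values of 0.0537 and 0.0676 without it. Among genes that fell, jg1883 (log2FC -1.98 and -1.88), jg9097 (-2.30 and -2.17) and jg1914 (-2.19 and -2.03) had adjusted p-values of 0.0544, 0.0549 and 0.0736 without it. In these 6 genes, leaving out replicate 12 moved the log2FC little, and the calls of each were also lost without 1 or more of the other embryos. Without replicate 10 of 4 dpf, the adjusted p-values were 0.122 for jg8177, 0.0503 for jg15534, 0.153 for jg6290, 0.164 for jg1883, 0.165 for jg9097 and 0.154 for jg1914.

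Of the 38 genes called higher only without replicate 12, this embryo lay below both others of its stage in 26 and above both in 6, and of the 10 called lower, it lay below both in 9. jg8743 had 622, 333 and 337 CPM at 4 dpf, against 1.55, 0.816 and 24.2 CPM at 1–2 dpf, so that replicate 12 was the embryo nearest to the later stage. Its log2FC was 5.59 with all 6 embryos (adjusted p = 0.0683) and 8.45 without replicate 12 (adjusted p = 0.000928). jg7044 had 273, 263 and 257 CPM at 4 dpf, against 29.8, 22.6 and 0 CPM at 1–2 dpf, and its adjusted p was 0.184 with all 6 and 0.00568 without replicate 12. jg7128 had 33.6, 55.7 and 30.6 CPM at 4 dpf, against 0, 0 and 10.7 CPM at 1–2 dpf (adjusted p of 0.417 and 0.00863). In 24 of the 38 genes called higher only without it, replicate 12 had no read. In the other direction, jg12920 had 23.8, 27.5 and 7.81 CPM at 4 dpf, against 377, 467 and 0.224 CPM at 1–2 dpf, where the single read of replicate 12 placed it below the later stage (adjusted p of 0.322 and 0.00778). jg6147 had 73.0, 54.4 and 49.2 CPM at 4 dpf, against 362, 415 and 89.0 CPM at 1–2 dpf (adjusted p of 0.0997 and 0.00823). jg18304, with no read in replicate 12 or at 4 dpf and 24.3 and 30.5 CPM in replicates 3 and 9, passed the filter only without replicate 12 (adjusted p = 0.0197).

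Replicate 3, the only female of 1 dpf, changed the count of calls more than replicate 12. Without it, 193 genes were called higher and 205 lower, and 139 of the 149 calls were kept. Another 103 genes were higher and 156 lower only without it. In 74 and 125 of these, replicate 3 lay past the midpoint between the 2 dpf females and the later stage. Selecting genes by leaving replicate 3 out favours those where it lies towards the later stage, so these counts are descriptive. Without any of the other embryos, fewer calls were made than with all 6. The count was 53 higher and 34 lower without replicate 7, 55 and 22 without replicate 10, and 50 and 25 without replicate 11 of 4 dpf, and 53 and 16 without replicate 9 of 1–2 dpf. Of the 149 genes, 36 that rose and 16 that fell were called whichever single embryo was left out. jg8673, jg5037, jg14473, jg9900 and jg2131 are among those called under every alternative tried.

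To place the embryos, the level of each was expressed on the 398 genes called without replicate 3, with 0 at the mean log2 CPM of female replicates 9 and 12 and 1 at the mean of the females of 4 dpf. These genes were called from the 2 dpf females, so the position of an embryo not used there is drawn towards the middle, and the values are descriptive. Replicate 3 stood at a median of 0.50. The males at 1–2 dpf also stood between the stages, at 0.58 for the embryo of 1 dpf and at 0.58 and 0.48 for the embryos of 2 dpf, while the males at 4 dpf stood at 0.96 to 1.01. The quartiles over genes of replicate 3 were 0.21 and 0.73, and this range holds the medians of all 3 males at 1–2 dpf.

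**Figure D4:**
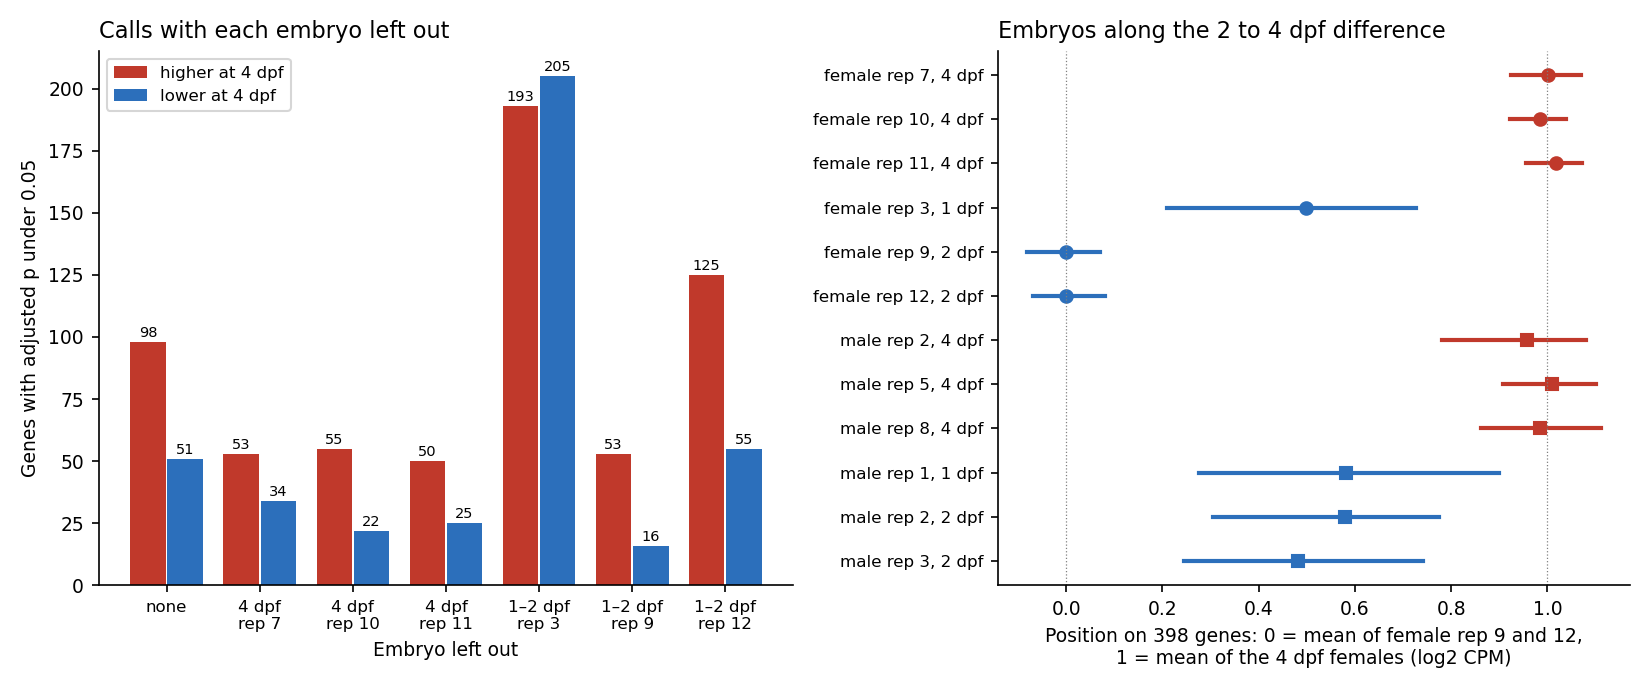
Left, genes called higher (red) and lower (blue) at 4 dpf with no embryo left out (98 and 51) and after leaving out single females; the highest counts, 193 and 205, are those without replicate 3. Right, median position of each of 12 embryos with its quartiles over 398 genes called without replicate 3, from 0 (mean of female replicates 9 and 12) to 1 (mean of the 4 dpf females), with 4 dpf in red, 1–2 dpf in blue, circles for females and squares for males.

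The males are a second set of embryos of the same stages, whose clutches are not given either. In them, 209 of 8772 genes were higher at 4 dpf (2.38%) and 83 lower (0.946%). Of the 98 genes that rose in females, 96 were tested in males, 93 had the same sign and 67 rose in males too. The 67 genes are 68.4% of the female list and 32.1% of the male list. Of the 51 genes that fell in females, 46 were tested in males and all had the same sign, and 19 fell in males as well (37.3% of the female list and 22.9% of the male list). Over the 142 genes tested in both, the log2FC of females and males had a Pearson r of 0.91, and over all 7959 genes tested in both sexes r was 0.62. Both values describe genes and not replicates, and the higher one covers genes chosen for a large difference in females. Their median log2FC was 4.34 in females and 3.10 in males for those that rose, and -4.91 in females and -3.88 in males for those that fell. The values of females are those by which the genes were chosen. No gene of 9833 had an adjusted p-value under 0.05 for the interaction of sex and stage with edgeR, where 543 were under 0.05 before adjustment and DESeq2 called 31. Without female replicate 12, the same test of edgeR called 1 gene.

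**Figure D5:**
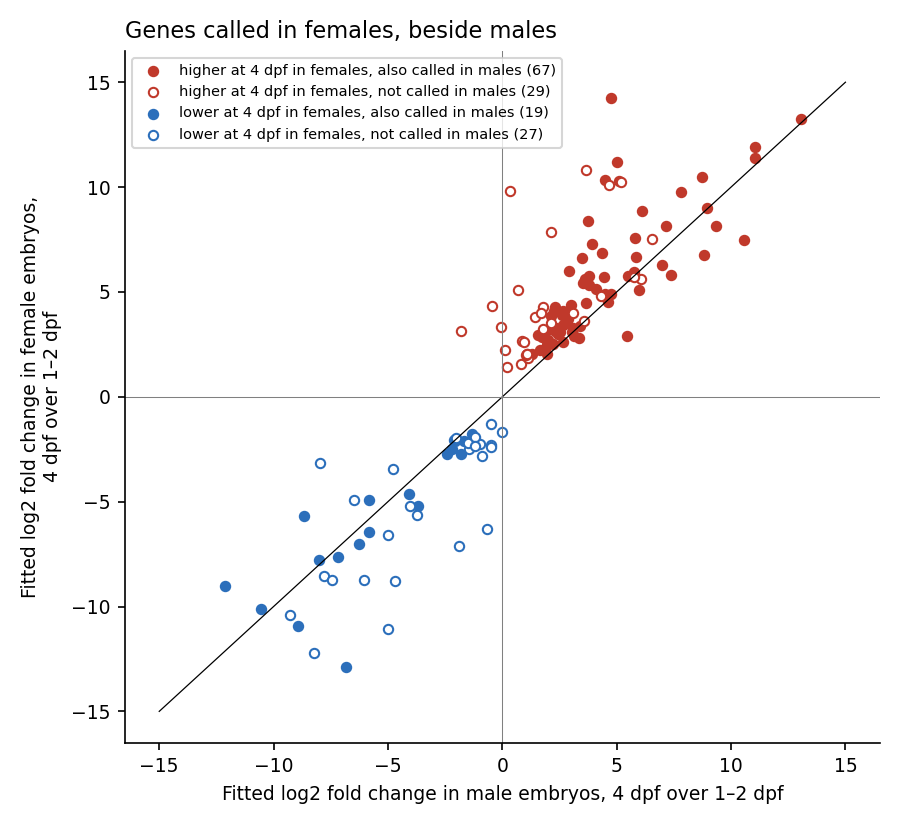
Fitted log2FC (4 dpf over 1–2 dpf) in female embryos (vertical axis) against that in male embryos (horizontal axis) for 142 genes called in females and tested in males. Filled points (67 red, higher; 19 blue, lower) were also called in males, open points were not; the black line marks equal values, and 93 of the red and 46 of the blue points have the same sign in both sexes.

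The 2 genes with the smallest interaction p-values towards a larger rise in females had reads in males at 1–2 dpf and few or none in females. jg11420, without a read in females at 1–2 dpf, had 9.98, 26.6 and 8.59 CPM in males of that stage, and 257, 581 and 369 CPM in males at 4 dpf, with CPM of males scaled over all 14 libraries (interaction, adjusted p = 0.0590 from edgeR). jg5037 had 6769.9, 4503 and 3915 CPM in males at 4 dpf, against 52.4, 238 and 153 CPM in males at 1–2 dpf, so that the rise was smaller by 5.19 on the log2 scale (standard error 0.79, adjusted p = 0.0883 from edgeR). In the other direction, jg5524 and jg18976 were not called in females (log2FC -1.39 and -2.79, adjusted p of 0.106 and 0.0911). Their interaction had adjusted p-values of 0.787 and 0.797. At 1–2 dpf, jg5524 had 2357, 4068 and 3038 CPM in females and 1313, 482 and 550 CPM in males. jg18976 had 129, 446 and 341 CPM in females and 41.5, 16.2 and 13.3 CPM in males. None of these interactions passed the adjusted threshold.

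The genes called in females were also placed in the males at the earlier stage. On a scale with 0 at the mean log2 CPM of females at 1–2 dpf and 1 at that of females at 4 dpf, the 51 genes that fell had a median position of 0.96 to 1.02 in the males at 4 dpf. At 1–2 dpf it was 0.14 in the male of 1 dpf and 0.30 and 0.43 in the males of 2 dpf. For the 98 genes that rose, the males at 1–2 dpf stood at 0.17 (1 dpf) and at 0.28 and 0.22 (2 dpf). The genes were chosen on the females that set this scale, which draws any other embryo towards the middle, so the positions are descriptive. In 14 of the 51 genes, both males of 2 dpf lay past the midpoint, as they did in 12 of the 98 genes that rose. The male of 1 dpf lay past it in 3 of the 51 and in 9 of the 98. jg9900 had 3532 CPM in the male of 1 dpf, and 72.2 and 1.36 CPM in the males of 2 dpf, whereas the females of 2 dpf had 10799 and 6632 CPM on their own scale. jg22221 had 15066 CPM in the male of 1 dpf, and 703 and 4.97 CPM in those of 2 dpf. jg22224 had 12529.5 CPM in the male of 1 dpf, and 807 and 36.8 CPM in those of 2 dpf. jg17559, in contrast, had 12578 CPM in the male of 1 dpf, and 45798 and 36152 CPM in those of 2 dpf, beside 19394 to 49742 CPM in the females. With 1 male of 1 dpf and 2 males of 2 dpf, the day and the embryo cannot be told apart. The interaction of sex and stage, with 1 and 2 dpf pooled, was not called by edgeR in any of these genes. Its adjusted p was 0.879 for jg9900, 0.989 for jg22221, 0.882 for jg22224 and 0.976 for jg17559. The females and males of 2 dpf were not tested against each other.

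In the adults, of which there is 1 library per sex, the detection of the genes that changed in female embryos is given as a description. More than 3 reads in the adult female were found for 35 of the 98 genes that rose (35.7%) and for 28 of the 51 that fell (54.9%), against 63.1% of all genes tested. In the adult male these were 35.7% and 47.1%, against 61.5% of all genes tested. All 8 of the genes with the smallest p-values among those that rose were at 0 reads in the adult female. In the adult male, jg6030 had 27.0 CPM and the others had no read. Among the genes that fell, jg18052 had 4849 CPM in the adult female and 60.4 CPM in the adult male. The female embryos of 4 dpf had at most 5 reads of it, and the males of 4 dpf had 4.42, 3.77 and 1.01 CPM.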

How the data were processed

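The values are counts as deposited by the authors, who ran the Cogent pipeline (v2.0.1) from trimming to gene counting; molecular identifiers were not collapsed, and nothing was normalized. The authors used an earlier published assembly of the species as reference, and its build name and the strand setting of the counting are not given in the sources used here. Barcodes in the labels tied each of the 14 columns to its sample. None of the 19421 identifiers matched the RefSeq gene table (0 matches), so gene names are those in the study's text and no sequence is shown.

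Tests were run with edgeR 4.0.16 under R 4.3.3 (filterByExpr, TMM, quasi-likelihood F test, Benjamini-Hochberg adjustment, threshold 0.05), on the 6 female embryos only. Standard errors are the absolute log2FC divided by the square root of F. DESeq2 1.42.0, limma 3.58.1 (voom with sample quality weights), other scalings and filters, all 12 embryos in 1 model and each female left out in turn were the alternatives. The fits without replicate 12 or 3 on the same 8392 genes were added after seeing the data. Folds against a stage without reads use a floor of 3 reads per library and are bounds. Positions of embryos use log2 CPM with a prior count of 2. Named genes are, in each direction, the 8 with the smallest p-values and the 4 most abundant among calls without overlap, the 3 with the smallest p-values among calls lost and gained without replicate 12, and the 2 with the smallest interaction p-values; the first and last gene of the 3 longest runs of numbers; the 5 most abundant genes; and all genes of the lists. Members and lists were chosen with earlier results of these data known. Fits were tested on simulated data. Figures were drawn with matplotlib 3.10.9.

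Depth was 2669131 to 7463397 counted reads per embryo, 3342959 for the female adult and 1840926 for the male, and it limits genes of few reads most.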

Additional observations from a re-analysis of the deposited data

How the results depend on the processing

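No paired analysis was possible because each library is of a different embryo and the labels do not give the clutch. Against 98 genes higher and 51 lower at 4 dpf, DESeq2 called 455 and 229, limma with quality weights 157 and 204, edgeR without a filter on low counts 199 and 129, and the model of all 12 embryos 206 and 132. With quality weights, 43.5% of the calls were higher, against 65.8% in the main test, and the weights ranged from 0.237 for replicate 12 to 2.31 for replicate 10 of 4 dpf. Genes with a read in every female gave 80 genes lower. Leaving out single embryos gave 50 to 193 genes that were higher and 16 to 205 lower, and on the same genes without replicate 3 these were 202 and 231. The interaction of sex and stage gave between 0 and 1 genes with an embryo left out and 31 with DESeq2. Robust fitting, RLE and upper quartile scaling, genes with a mean count above 100, and the fit without replicate 12 kept both counts within 1.5 times.

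Among the 60 named genes that were tested, 33 were called, none of these changed sign in any alternative, and 55 of 554 of their values lost the call. The stages did not overlap in any called gene, so a change of sign was hardly possible there. A sign changed only in genes without a call. With an embryo left out, the log2FC of jg13090 lay between -0.56 and 0.48, that of jg12255 between -0.11 and 0.54, that of jg9787 between -1.21 and 0.34, that of jg9907 between -0.16 and 0.29 and that of jg8968 between -0.086 and 1.00. It was -0.54 for jg13090, -0.025 for jg12255 and -0.066 for jg8968 without replicate 12 on the same genes, -0.068 for jg9907 without replicate 3 on the same genes, -0.11 for jg12255 with quality weights and -0.00097 for jg9907 with upper quartile scaling. Depth limits genes of few reads, since 3 reads already correspond to up to 0.816 CPM in a female embryo.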
